A study of Homo sapiens with 8 samples.

Results

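SNAI1, SNAI2, ZEB1, ZEB2, TWIST1 and TWIST2 encode the transcription factors best known for driving the epithelial-mesenchymal transition (EMT), and VIM encodes vimentin, the intermediate filament protein that marks mesenchymal cells. These 7 genes were followed in MDA-MB-231, an established cell line from a human triple-negative breast tumour, after 2 days on a stiff or on a soft substrate. Their members on the array were all probe sets whose only gene symbol in the platform annotation is one of these 7: 16 of the 54613 probe sets tested, and 7 of 19775 genes, with 1 each for SNAI1, SNAI2 and TWIST1, 2 each for TWIST2 and VIM, 4 for ZEB1 and 5 for ZEB2. Total RNA of 4 biological replicates per substrate, A to D, was read on Affymetrix arrays, 1 array each, so there are 8 arrays. All cells were of the same line and grew in the same serum-containing medium, and the stiff arrays are the controls here. No elastic modulus is given in the sources used here, and how the replicate cultures were kept apart is not stated, so a p-value here reflects the scatter among these 8 arrays. By its title, the study concerned how mechanical cues act on mutant p53 by way of mevalonate and RhoA.

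As background, EMT is the programme by which epithelial cells lose their junctions and polarity and gain motility. SNAI1 (Snail), SNAI2 (Slug), ZEB1 and ZEB2 are zinc finger proteins that bind E-box sequences and repress epithelial genes such as E-cadherin (CDH1), while TWIST1 and TWIST2 are basic helix-loop-helix (bHLH) proteins that act as dimers. MDA-MB-231 is a line of mesenchymal character, known for abundant vimentin and little E-cadherin.

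Of the 7 genes, SNAI2 alone passed the test described below. It was lower on the soft substrate, by 0.51 on the log2 scale, which is 1.42-fold higher on stiff than on soft. VIM and ZEB1, the other members read well above background, did not pass the test, and neither did SNAI1, ZEB2, TWIST1 or TWIST2, whose probe sets lay under the background level. The deposited values are log2 RMA levels, in which 1 unit is a doubling. Differences are soft minus stiff and were tested with limma, with p-values adjusted over all 54613 probe sets (Benjamini-Hochberg, threshold 0.05). By this rule 1 of the 16 member probe sets was called, and it was lower on soft. Over all probe sets 9.27% were called in either direction and 4.63% as lower on soft, so a single call among 16 is close to the share over the whole array. The background level, 6.80, is the 95th percentile over 16 tissue-specific genes, by mean level, assumed not to be active in this line. It rests partly on SFTPC, a lung surfactant gene read at 7.59; without it the level would be 6.28. Of the 16 member probe sets 6 lay above 6.80: that of SNAI2, both of VIM and 3 of ZEB1.

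**Figure D1:**
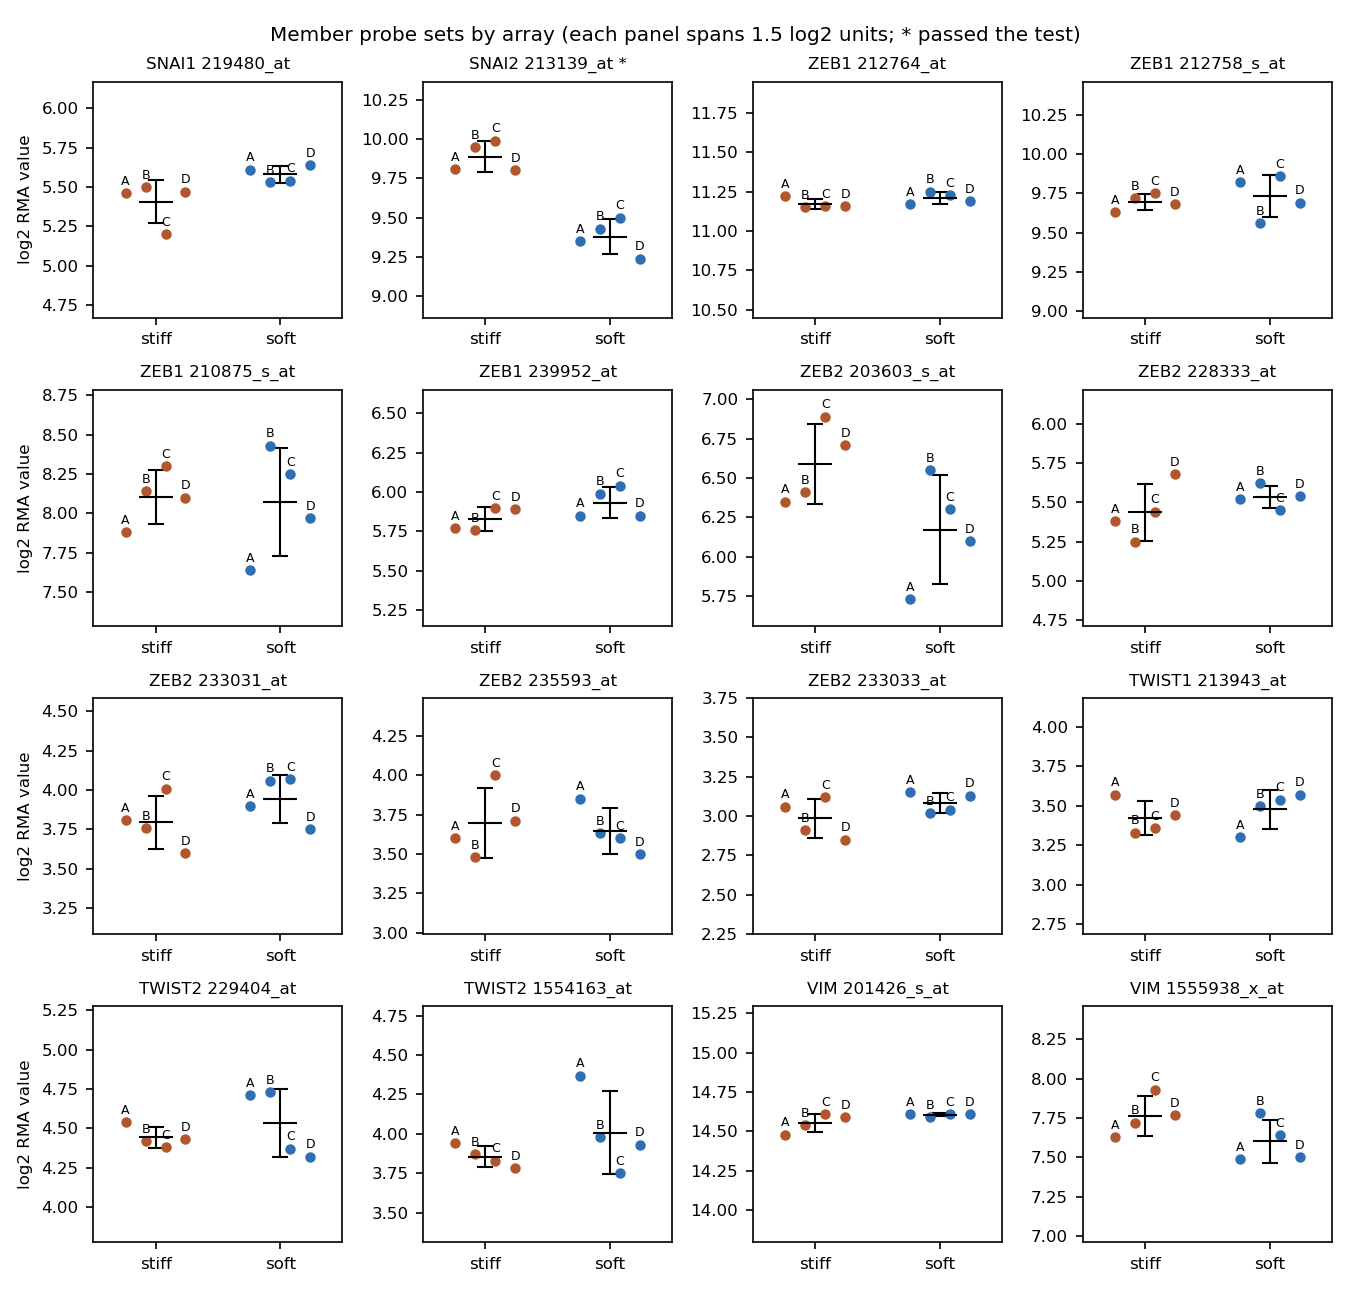
Log2 RMA values (vertical axis) of the 16 member probe sets on the 4 stiff (brown) and 4 soft (blue) arrays, lettered by replicate, with the mean (long bar) and SD (short bars) of each group; every panel spans the same range of 1.5 log2 units. The soft arrays lie wholly below the stiff arrays for SNAI2, wholly above them for SNAI1, and overlap them in the other panels.

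The arrays and labels were checked first. Arrays correlated with each other at 0.9932 to 0.9982. A principal component analysis put 40.4% of the variance on a first axis, with stiff arrays on 1 side and soft arrays on the other, and 16.4% on the second, which set stiff A and B apart from stiff C and D. All 8 genes listed as high in this line, among them CD44, AXL and CAV1, were above background. Of 8 genes listed as low, ESR1, PGR, FOXA1, CDH1 and ESRP1 were under it, while EPCAM (9.88), GATA3 (8.28) and ERBB2 (7.98) were above. Among markers of other cell types, 1 of 8 fibroblast genes (COL1A1), 1 of 5 immune genes (HLA-DRA) and 1 of 5 endothelial genes (PECAM1) were above background, and the defining markers PTPRC, CD3E, CDH5 and VWF were not. HLA-DRA and PECAM1 were higher on soft, by 0.40 (adjusted p = 0.0299) and 0.49 (adjusted p = 0.00211, limma). The summed log2 levels of the immune list lay between 27.2 and 29.3 on stiff arrays and between 29.4 and 29.9 on soft arrays. Those of the endothelial list were 26.9 to 27.9 and 27.5 to 27.9, and those of the fibroblast list 42.0 to 43.2 and 41.8 to 43.2. The part of these markers in the results that follow was not tested.

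SNAI2, the Slug repressor, has 1 probe set (213139_at). It read 9.81, 9.95, 9.99 and 9.80 on stiff A to D, and 9.35, 9.43, 9.50 and 9.24 on soft A to D. Every soft array was below every stiff array, with a gap between soft C and stiff D. The means were 9.89 ± 0.097 on stiff and 9.38 ± 0.11 on soft (SD, n = 4 each). The difference was -0.51 (SE 0.0759, 95% confidence interval -0.67 to -0.34, adjusted p = 0.0028 by limma across all probe sets). An exact two-sided permutation test of the 8 values gave p = 0.0286, the smallest that 4 against 4 arrays can give. Groups did not overlap at 2 of the 16 member probe sets, against 16.6% of all probe sets. With only stiff A and B as controls SNAI2 differed by -0.50, and with only stiff C and D, which the second axis sets apart from them, by -0.52. In RNA from whole cultures, fewer cells with SNAI2 RNA and less SNAI2 RNA per cell cannot be told apart.

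SNAI1, the Snail repressor, has 1 probe set (219480_at). It read 5.46, 5.50, 5.20 and 5.47 on stiff A to D and 5.61, 5.53, 5.54 and 5.64 on soft. The soft arrays lay just above the stiff arrays, and all 8 values were under background. The difference was 0.17 (SE 0.0763, 95% interval 0.005 to 0.34), which did not pass the test (adjusted p = 0.204, limma). Stiff C was the lowest array, and without it the difference was 0.10 (adjusted p = 0.427). The SNAI1 value thus had the opposite sign to that of SNAI2, at a level under background.

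ZEB1, a large zinc finger repressor of epithelial genes, has 4 probe sets, and its most intense one (212764_at) was nearly level. It read 11.22, 11.15, 11.16 and 11.16 on stiff A to D and 11.17, 11.25, 11.23 and 11.19 on soft. The groups overlapped, and the difference was 0.038 (SE 0.0561, 95% interval -0.086 to 0.16, adjusted p = 0.756, limma), an interval narrow on the log2 scale. Probe set 212758_s_at ranged from 9.63 to 9.75 across stiff arrays and from 9.56 to 9.86 across soft arrays, a difference of 0.038 (adjusted p = 0.826). Probe set 210875_s_at spread more, with 7.88, 8.14, 8.30 and 8.10 on stiff and 7.64, 8.43, 8.25 and 7.97 on soft A to D. Soft A was the lowest of its 8 arrays and soft B the highest, and the group means differed by -0.033 (95% interval -0.37 to 0.30, adjusted p = 0.93). The dimmest, 239952_at, lay under background, between 5.76 and 5.90 on stiff arrays and between 5.85 and 6.04 on soft arrays (difference 0.10, adjusted p = 0.433). ZEB1-AS1, the RNA transcribed from the opposite strand near ZEB1 and no member, has a probe set of its own that differed by 0.10 (adjusted p = 0.348), with a mean of 6.76, just under background.

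ZEB2, the paralog of ZEB1, has 5 probe sets, all under background. The most intense (203603_s_at) read 6.35, 6.41, 6.89 and 6.71 on stiff A to D and 5.73, 6.55, 6.30 and 6.10 on soft. Soft A was the lowest and stiff C the highest, and soft B and soft C lay among or close to the lower stiff arrays. The mean of its 8 arrays, 6.38, is under the background level of 6.80 but above the 6.28 found without SFTPC. The difference was -0.42 (SE 0.166, 95% interval -0.79 to -0.054), with an unadjusted p of 0.028 and an adjusted p of 0.153 (limma). This value moved with single arrays: it was -0.27 without soft A, -0.32 without stiff C and -0.55 without soft B. It was -0.21 when set against stiff A and B and -0.63 when set against stiff C and D. None of these passed the test (adjusted p = 0.331, 0.329, 0.071, 0.634 and 0.11). The other 4 probe sets of ZEB2 read between 2.85 and 5.68 and pointed the other way in 3 cases: 0.095 at 228333_at, 0.15 at 233031_at and 0.10 at 233033_at, with -0.053 at 235593_at. The mean over all its probe sets differed by -0.026 (adjusted p = 0.871).

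TWIST1 and TWIST2, the bHLH members, were read far under background. TWIST1 (213943_at) had 3.57, 3.33, 3.36 and 3.44 on stiff A to D and 3.30, 3.50, 3.54 and 3.57 on soft, with overlap and a difference of 0.053 (95% interval -0.12 to 0.23, adjusted p = 0.761, limma). TWIST2 had values between 4.38 and 4.54 on stiff and between 4.32 and 4.73 on soft arrays at 229404_at, a difference of 0.09 (adjusted p = 0.658). At 1554163_at they lay between 3.78 and 3.94 on stiff and between 3.75 and 4.37 on soft arrays, a difference of 0.15 (adjusted p = 0.476). Soft A was the highest array at 1554163_at. Array values so low are known to compress differences.

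VIM, which encodes vimentin, has 2 probe sets of very different level. The more intense (201426_s_at) read 14.48, 14.54, 14.61 and 14.59 on stiff A to D and 14.61, 14.59, 14.61 and 14.61 on soft. The highest value of any probe set on these arrays was 14.80, so this one lies at the top of the scale, where array signals are known to flatten. Its difference was 0.05 (SE 0.0574, 95% interval -0.076 to 0.18, adjusted p = 0.672, limma). The dimmer one (1555938_x_at) read 7.63, 7.72, 7.93 and 7.77 on stiff and 7.49, 7.78, 7.64 and 7.50 on soft. Its groups overlapped through soft B and soft C, and the difference was -0.16 (95% interval -0.35 to 0.030, adjusted p = 0.307). The endings _s_at and _x_at mark probe sets whose probes can also match other transcripts. The 2 readings of VIM thus had opposite signs, and neither passed the test.

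**Figure D2:**
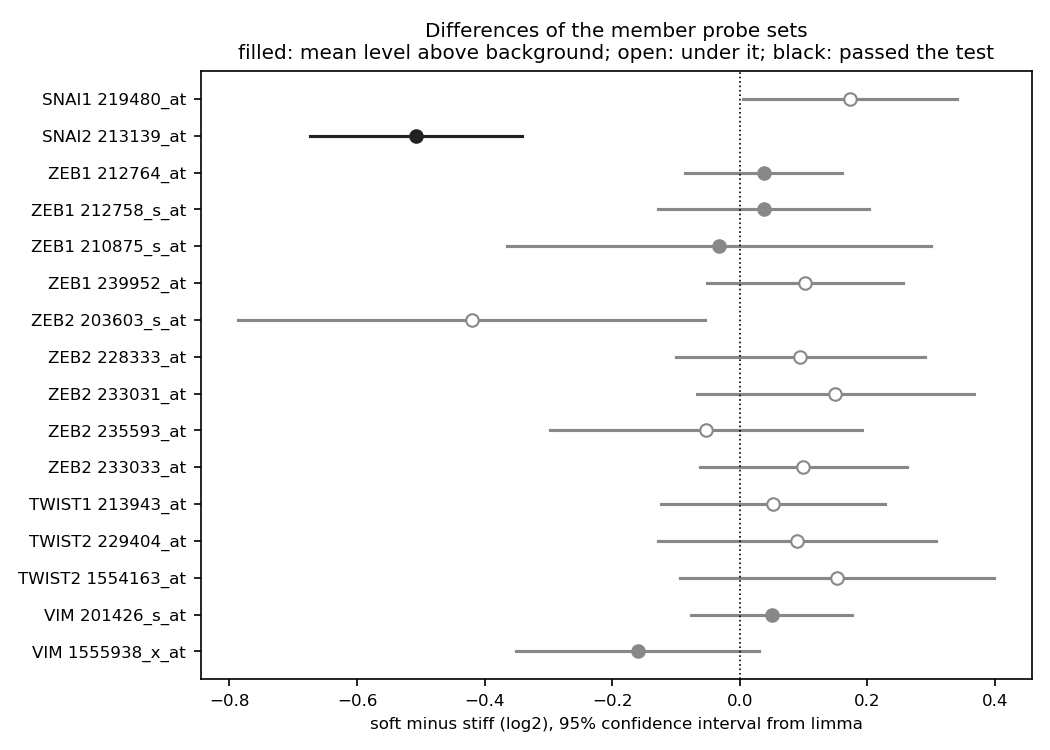
Soft minus stiff difference (horizontal axis, log2) of each of the 16 member probe sets, as points with 95% confidence intervals from limma; filled points have a mean level above background, open points do not, and black marks the 1 that passed the test. SNAI2 lies at -0.51 and the 15 others between -0.42 and 0.17; the intervals of SNAI1 and of ZEB2 203603_s_at also exclude 0, before adjustment.

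Together the 15 probe sets that were not called differed by -0.42 to 0.17, with adjusted p from 0.153 to 0.93. Of all 16, 5 pointed lower and 11 higher on soft, and 3 had an unadjusted p under 0.05 (SNAI2, ZEB2 203603_s_at and SNAI1). Among all 19775 genes, read at 1 probe set each, 10348 pointed higher on soft and 4942 had an unadjusted p under 0.05 (limma). Over 22 alternative ways of processing the same values, SNAI2 remained called in each, with differences of -0.55 to -0.46 and adjusted p from 0.000255 to 0.026. No other member probe set was called in any alternative that could read it.

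**Figure D3:**
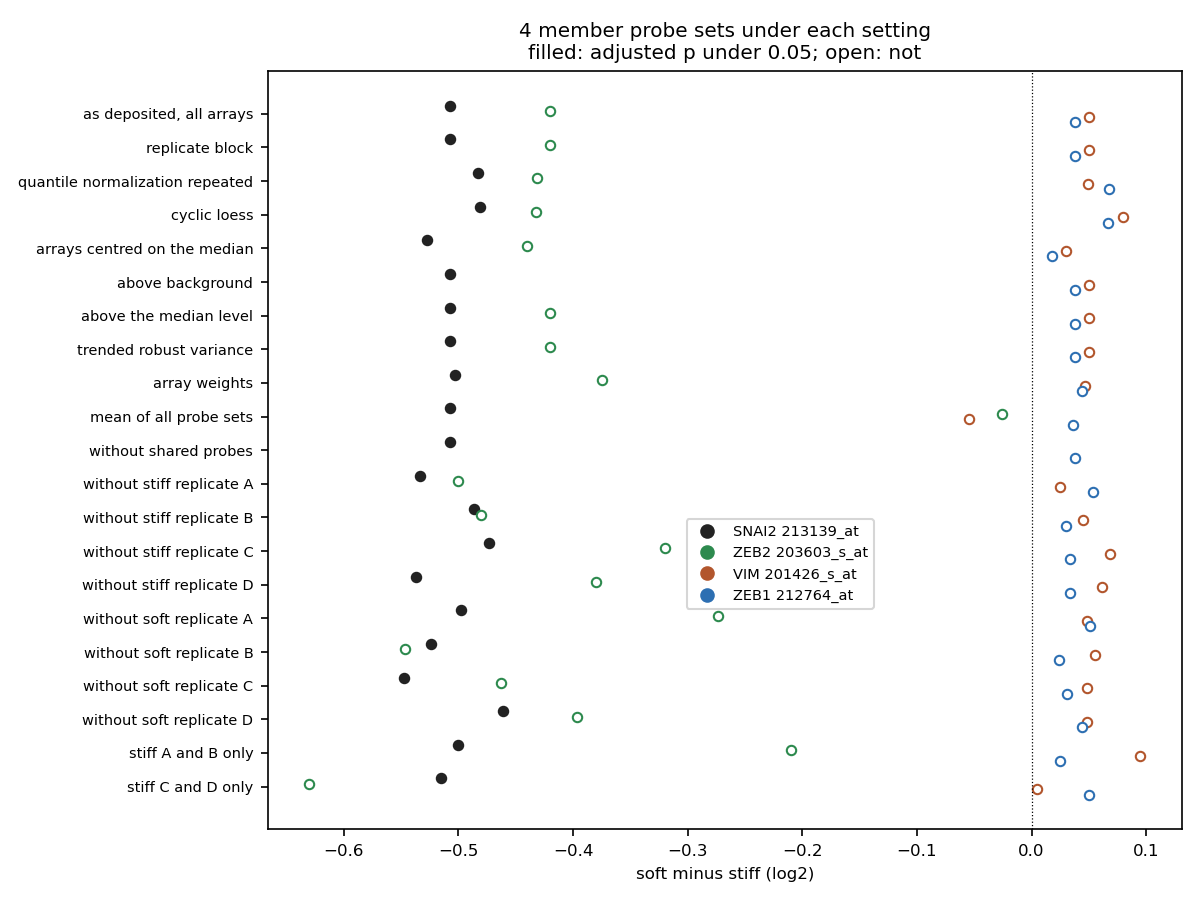
Soft minus stiff difference (horizontal axis, log2) of 4 member probe sets as deposited and under each alternative setting (vertical axis), except changed thresholds; filled points have an adjusted p under 0.05, and a missing point means that the setting dropped that probe set. SNAI2 stays between -0.55 and -0.46 and filled in every row. The points of ZEB2 203603_s_at range from -0.63 to -0.21 and none is filled. In the row for the mean of all probe sets each point is the mean over the gene's probe sets, which for ZEB2 is -0.026 and not filled.

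The genes whose levels followed SNAI2 most closely were sought among 10054 genes with a mean level above background, by Pearson correlation over the 8 arrays, which share the step between substrates. They were the amino acid transporter gene SLC7A6 (r = 0.991), TBC1D4, a Rab GTPase-activating protein gene (0.988), the RNA gene RDUR (0.988), ABCF2 (0.987) and CYP24A1, the vitamin D hydroxylase gene (0.985). Taken as deviations from the group means, so without that step, the correlations were 0.935, 0.948, 0.905, 0.911 and 0.861. CYP24A1 fell by 1.0, TBC1D4 by 0.34 and RDUR by 0.37 on soft, all 3 past the test (adjusted p = 0.000448, 0.0147 and 0.00816, limma). SLC7A6 and ABCF2 differed by -0.20 and -0.14 and did not pass it (adjusted p = 0.0578 and 0.157). These genes were picked as the top of 10054, so high values were bound to occur.

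Genes around the EMT factors were then read in 8 lists, with 1 probe set per gene, the one of highest mean level. Over all 19775 genes, 4.39% were called higher and 5.93% lower on soft, and the median difference was 0.0075. Of these 19775 genes 4942 had an unadjusted p under 0.05 (limma). The list counts at that level are to be read against this share.

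The epithelial genes that EMT factors are known to repress were read in 29 cases. Of these 6 rose on soft, 1 fell and 22 did not pass the test, with a median of 0.10. An unadjusted p under 0.05 (limma) was found for 13 of the 29, in either direction. MAL2, which encodes an apical transport protein, rose by 0.57 (1.48-fold, SE 0.0966, adjusted p = 0.00532). It read 9.05, 9.26, 9.25 and 9.41 on stiff A to D and 9.59, 9.96, 9.79 and 9.90 on soft, without overlap. JUP, which encodes the junction protein plakoglobin, rose by 0.47 (1.39-fold, SE 0.0681, adjusted p = 0.00241), with stiff arrays between 7.34 and 7.58 and soft arrays between 7.85 and 7.97. PKP2, which encodes the desmosomal protein plakophilin 2, fell by 0.50 (adjusted p = 0.0349), and soft A was its lowest array at 8.41. The other PKP2 probe set, under background, differed by -0.05 (adjusted p = 0.876, limma). With the mean of its probe sets PKP2 missed the threshold (-0.28, adjusted p = 0.164). The count of 6 was 5 to 7 when 1 array was left out, 4 with stiff A and B as the only controls, and 3 with stiff C and D. It was also 3 at a threshold of 0.01, and 3 without shared probes, a setting that drops some of the list.

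CDH1, the E-cadherin gene and the classical target of these repressors, lay under background at 4.26, with a difference of -0.058 (adjusted p = 0.692, limma) at its more intense probe set. Its other one, also under background, fell by 0.45 (from 4.42 to 3.97, adjusted p = 0.0137). With the mean of its probe sets CDH1 passed the test as lower on soft (-0.25, adjusted p = 0.0192, limma), still at a level under background. EPCAM, an epithelial adhesion gene, read 9.60 to 9.98 and differed by -0.12 (adjusted p = 0.452).

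SNAI and ZEB proteins are known to bind the E-box CAGGTG, which reads CACCTG on the opposite strand. It was searched for, counting each site once, in the 250 bases before each start of a RefSeq gene (GRCh38.p14), to show where such letters stand before genes whose levels are given here. Of the epithelial genes 15 were in the RefSeq promoter table, and 11 of these (73.3%) had a match before at least 1 of their starts, in 13 of 23 windows (56.5%). Of these 11 genes 2, JUP and CLDN7, rose and 9 did not pass the test. The 4 genes without a match did not pass it either. The other epithelial genes that rose, MAL2 among them, were not in the promoter table and could not be searched. Among all 27305 genes in that table, 20.6% had a match, as had 17.5% of all 35116 windows. The epithelial genes were listed because EMT factors are known to repress them, so the higher share is no independent result. Of the members 4 were in the table: ZEB1 had matches before 2 of its 7 starts, and ZEB2, TWIST2 and VIM had none. In the stretches of 30 bases below, written 5′ to 3′ along the gene, capitals mark each E-box that lies wholly within the stretch. The CRB3 stretch ends inside a further E-box, which is left in small letters. JUP and CLDN7, the tight junction gene claudin 7, are shown as genes that rose (CLDN7, chosen after its values were seen, by 0.35, adjusted p = 0.0124). CRB3, a polarity gene that did not pass the test (-0.068, adjusted p = 0.611), and ZEB1 are shown for contrast.
JUP, chr17:41786006-41786035, minus strand, the bases from 59 to 30 before a start: ggcccCACCTGccgagCAGGTGagcgcacg
CLDN7, chr17:7262479-7262508, minus strand, the bases from 30 to 1 before a start: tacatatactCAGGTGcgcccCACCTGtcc
CRB3, chr19:6464038-6464067, plus strand, the bases from 233 to 204 before a start: caatgCAGGTGtaaggtccccctcacacct
ZEB1, chr10:31319126-31319155, plus strand, the bases from 90 to 61 before a start: taaacCAGGTGcggtggggaggggggaggg
JUP had 2 such sites before this start and CLDN7 had 4, while each had none before its other start in the table. CRB3 had 5, the most among the epithelial genes, and its level did not pass the test. A match is a run of letters, not a measured binding site.

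Of 23 mesenchymal effector genes, which EMT is known to raise, 1 rose, 2 fell and 20 did not pass the test, against 4.39% higher and 5.93% lower over all genes. In this list 7 had an unadjusted p under 0.05 (limma), in either direction. Their median, 0.0075, equals that of all genes. S100A4, a calcium-binding protein gene of motile cells, rose by 0.53 (SE 0.0946, adjusted p = 0.00708). The matrix proteoglycan gene VCAN fell by 0.55 (adjusted p = 0.0147, mean level 6.14, under background) and FSTL1, a secreted glycoprotein gene, by 0.51 (adjusted p = 0.00721). The N-cadherin gene CDH2 was under background at 5.01 and differed by -0.02 (adjusted p = 0.941). Fibronectin (FN1) differed by 0.19 (SE 0.0859, adjusted p = 0.207, limma), and 3 further probe sets of similar level by 0.24, 0.25 and 0.24 (adjusted p = 0.111, 0.0955 and 0.152). When probe sets above background alone were fitted, 4 genes of this list rose and 1 fell. With stiff C and D as the only controls none fell: FSTL1 differed by -0.36 (adjusted p = 0.0629) and VCAN by -0.53 (adjusted p = 0.098), and VCAN also missed the threshold against stiff A and B (adjusted p = 0.0804). Of 15 other intermediate filament genes and vimentin partners 0 passed limma's test (3 at an unadjusted p under 0.05), with a median of 0.11. Those 3, named after their values were seen, lay just short of the threshold: BFSP1, a lens filament gene, at 0.29 (adjusted p = 0.0501), PLEC, which encodes the filament linker plectin, at 0.29 (adjusted p = 0.0531), and SYNC, which encodes the filament protein syncoilin, at 0.24 (adjusted p = 0.0537). The count called higher in this list was accordingly 0 to 3 over the alternatives, among them 2 with cyclic loess scaling and 3 with probe sets above the median level.

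**Figure D4:**
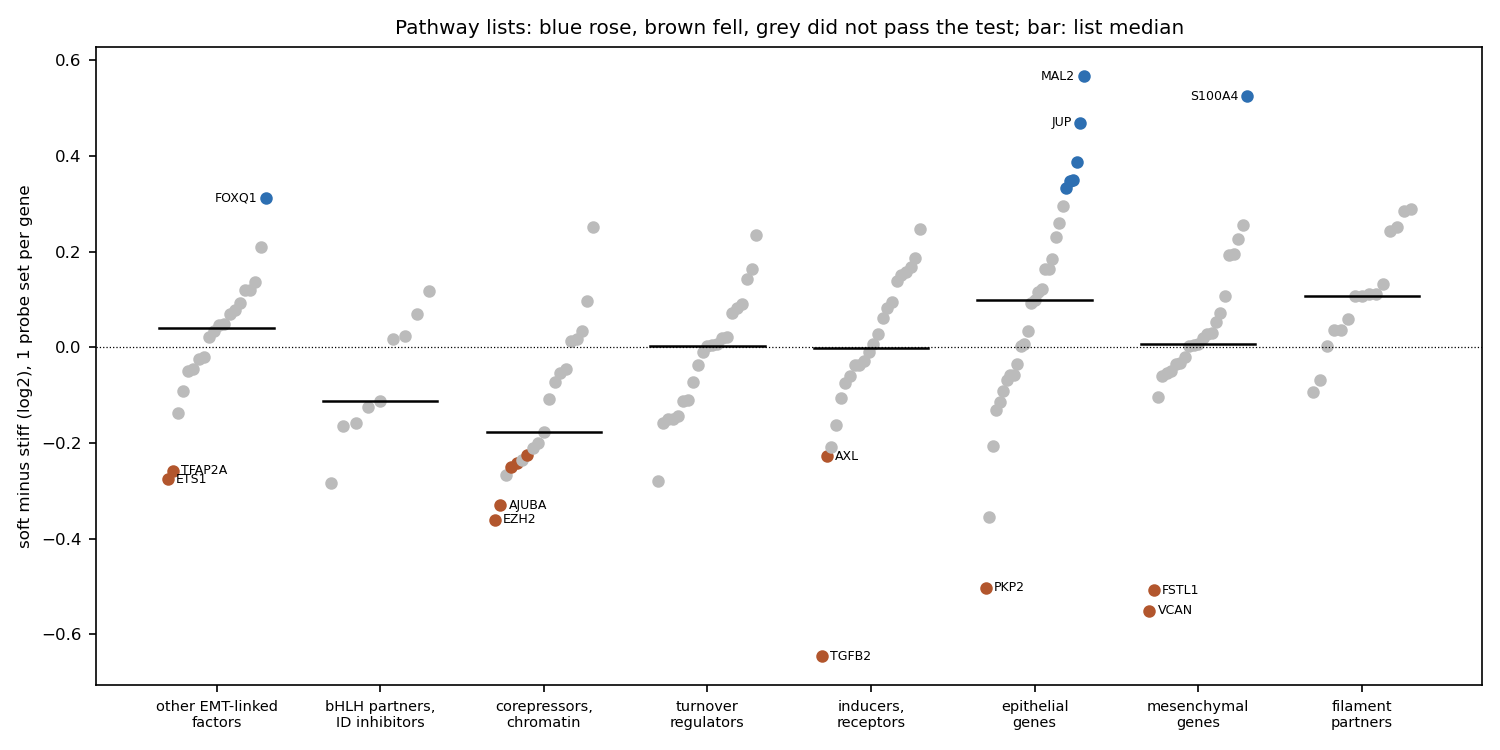
Soft minus stiff differences (vertical axis, log2) of the genes in 8 pathway lists (horizontal axis), 1 probe set per gene, ordered by value within each list; blue genes rose, brown genes fell, grey genes did not pass the test, and the bar is the list median. Of the epithelial genes 6 are blue and 1 is brown, and the corepressor list has the lowest median, -0.18.

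The inducers of EMT, its receptors and signal carriers had 2 genes that fell among 22 read and none that rose (7 at an unadjusted p under 0.05), with a median of -0.0013. TGFB2, a TGF-beta ligand, fell by 0.65 (SE 0.0764, adjusted p = 0.000837, limma), with stiff arrays between 10.06 and 10.23 and soft arrays between 9.39 and 9.64. Its probe sets 209909_s_at, 220407_s_at and 209908_s_at fell too, by 0.85, 0.67 and 0.70, and 220406_at differed by 0.075 (adjusted p = 0.661). The receptor tyrosine kinase gene AXL fell by 0.23 (adjusted p = 0.0318), and its other probe set differed by -0.06 (adjusted p = 0.615). The others at an unadjusted p under 0.05 (limma), named after their values were seen, did not pass the test. TGFB1, SMAD7, TGFBR2 and SMAD3 pointed higher (0.25, 0.19, 0.16 and 0.15) and NOTCH1 lower (-0.16). When probe sets above background alone were fitted, 3 genes of this list rose and 3 fell. The count of 2 lower was 1 to 2 when 1 array was left out.

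Corepressors and chromatin partners of the EMT factors showed 5 lower of 19 read, 0 higher by limma (10 at an unadjusted p under 0.05, in either direction) and a median of -0.18. AJUBA, a LIM protein gene whose product partners SNAI proteins, fell by 0.33 (SE 0.0601, adjusted p = 0.00747), and 2 further probe sets by 0.29 and 0.58, while 243446_at, under background, differed by -0.06 (adjusted p = 0.743). EZH2 fell by 0.36 (adjusted p = 0.0297). The other 3, named after their values were seen, were SUZ12 (-0.25), EED (-0.23) and PARP1 (-0.24); EZH2, SUZ12 and EED encode core subunits of the histone methyltransferase complex PRC2. The count of 5 was 2 with cyclic loess scaling. It was 1 without stiff A, B, C or D or without soft B or D, and 2 without soft A, 1 when the controls were stiff A and B, and 0 when they were stiff C and D.

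Among 20 other EMT-linked transcription factors 1 rose and 2 fell, with 3 at an unadjusted p under 0.05 (limma) and a median of 0.041. FOXQ1, a forkhead factor gene, rose by 0.31 (adjusted p = 0.0421, limma), ETS1 fell by 0.28 (adjusted p = 0.0323) and TFAP2A by 0.26 (adjusted p = 0.0251). At the other probe sets ETS1 fell by 0.73 and 0.31, while those of TFAP2A lay far under background and differed by 0.16 and 0.038. Of 9 bHLH partners and ID inhibitors 0 passed the test (1 at an unadjusted p under 0.05; median -0.11), and of 21 genes for turnover and activity of the EMT factors 0 passed it (5 at an unadjusted p under 0.05; median 0.0025). Of the 13 called genes named from the lists, 7 were called whichever single array was left out: AJUBA, TGFB2, MAL2, JUP, VCAN, FSTL1 and S100A4. With only 2 stiff arrays as controls, AJUBA missed the threshold against either pair (adjusted p = 0.0509 and 0.0544) and MAL2 against stiff C and D (adjusted p = 0.0525). ETS1 lost its call without stiff A, C or D or soft A or D (adjusted p = 0.0534 to 0.0938), and TFAP2A without stiff A, B or D or soft C or D (0.0526 to 0.0781). FOXQ1 lost it without stiff C or D or any soft array (0.0665 to 0.113), and EZH2 without any stiff array or soft B or D (0.0554 to 0.0712). AXL lost it without any array but soft D (0.058 to 0.0828), and PKP2 without stiff A, B or C or soft D (0.0723 to 0.0999).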

How the data were processed

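The authors deposited 1 log2 value for each probe set on each array. RMA, the method, comes from the labels, per the submitters' processing notes; its software, version and probe definition are not given in the sources used here. RMA equalises arrays, so it removes a shift common to all genes. The log2 scale was read from the values. Of 54675 probe sets 62 manufacturer's controls were left out. A platform annotation, updated through RefSeq gene identifiers, gave 41091 probe sets 1 symbol, 1801 several and 11721 none.

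The fit was limma 3.58.1 in R 4.3.3 (lmFit, eBayes without trend) on all 8 arrays, without filter or covariate, and was tested on simulated data. All tests were two-sided. Members and lists were chosen with earlier results of these data known. Named were all members, CDH1, CDH2, EPCAM and FN1, up to 2 called genes per list and direction, and the 5 genes most correlated with a called member; others are marked as named after their values were seen, apart from cell markers and CRB3, shown for its promoter.

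Replicate letters are shared by the groups; deviations of same-lettered arrays correlated at -0.118 to 0.122, so letters were not taken as pairs. Alternatives covered scaling, filters, variance model, weights, threshold, probe set choice and arrays; those for lists were added after the data were seen. The number of arrays limits precision.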

Additional observations from a re-analysis of the deposited data

Results flagged for a closer look

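In 66 groups of 4 arrays, from 33 probe sets of members and named genes, 6 groups had an array far from the other 3 by Dixon's 95% criterion; chance gives about 1 in 20 groups. SNAI1 read 5.20 on stiff C against 5.46 to 5.50 on the other stiff arrays. ZEB1 (212764_at) read 11.22 on stiff A against 11.15 to 11.16. VIM (201426_s_at) read 14.59 on soft B against 14.61 on each of the other soft arrays, a gap of the last digits deposited. TFAP2A read 7.98 on stiff D against 7.86 to 7.88, JUP 7.85 on soft C against 7.96 to 7.97, and EPCAM 9.84 on stiff A against 9.96 to 9.98. No array stood apart for more than 2 of these 6 probe sets.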

How the results depend on the processing

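In 22 alternatives 1 member probe set was called, that of SNAI2, each time. With the replicate block SNAI2 was at -0.51 (adjusted p = 0.00546); the letters were not taken as pairs, and 1 of 4 stiff arrays correlated best with its own letter. With it 2 corepressor genes were called lower, not 5, 0 other EMT-linked factors, not 2, and 1 inducer, not 2: ETS1 (adjusted p = 0.059), TFAP2A (0.0631) and AXL (0.0786) missed the threshold. The 5061 probe sets called over the array became 1663 at a threshold of 0.01, 7599 at 0.1, 2281 genes with the mean of all probe sets, 2822 without shared probes, 2851 to 5080 with 1 array left out, 2659 against stiff A and B only and 2188 against stiff C and D only; fewer arrays, features or a changed threshold enter by construction.

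Signs turned for values near 0 that were not called. ZEB1 210875_s_at was 0.015 with array weights, 0.063 against stiff A and B only and -0.15 to 0.11 with 1 array left out. ZEB1 212758_s_at was -0.005 to 0.095 with 1 array left out, and ZEB2 235593_at -0.13 to 0.048 there and 0.11 against stiff A and B only. ZEB2 228333_at was -0.028 and CDH2 0.0025 against stiff C and D only, CDH2 -0.11 to 0.073 with 1 array left out, and VIM -0.055 with the mean of its probe sets. The cause was not tested. Levels under background, and the top of the scale for VIM, limit what these arrays can show.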

Other observations

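At 3 member probe sets the soft arrays took the same order and the stiff arrays had the same lowest and highest array: ZEB1 210875_s_at, ZEB2 203603_s_at and VIM 1555938_x_at were lowest on soft A, then soft D, soft C and soft B, with stiff A the lowest and stiff C the highest stiff array. This pattern was chosen after the values were seen. Over all 54613 probe sets 561 (1.03%) showed it. For ZEB1 and VIM these probe sets spread more than the most intense one of the same gene: SDs on soft were 0.345 for ZEB1 210875_s_at against 0.0365 for 212764_at, and 0.137 for VIM 1555938_x_at against 0.010 for 201426_s_at.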
